A study of Mus musculus with 16 samples.

Results

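Cd83, Cd40, Cd80, Cd86, Cd274, Icosl, Icam1, Cd44 and Cd69 encode surface molecules with which an antigen-presenting cell signals to, or adheres to, lymphocytes. The genes were taken as a fixed list of symbols, and all 9 of 9 listed genes were found among the 9614 genes of the table. RNA-seq was performed in primary mouse bone-marrow-derived macrophages (BMDM) of 3 WT and 3 NELF-B KO mice, male C57BL/6 animals of 8 weeks of age. Both genotypes carry LysM-Cre, a Cre driven in myeloid cells. WT mice are LysM-Cre:NELF-B wt/wt and KO mice LysM-Cre:NELF-B fl/fl, so that the gene for the B subunit of the negative elongation factor is deleted only where and when Cre acted. Cells of each genotype gave 2 untreated libraries, 3 libraries after 1 hr of LPS at 10 ng/ml, and 3 libraries after 1 hr of the same LPS together with dexamethasone (Dex), a synthetic glucocorticoid, at 100 nM. The letters A, B and C stand for the mice of a genotype, and mouse C has no untreated library.

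Presentation of an antigen alone does not fully activate a T cell. CD80 and CD86 supply the second signal through CD28 and are also bound by the inhibitory receptor CTLA-4, ICOSL binds ICOS, and PD-L1, the product of Cd274, restrains T cells through PD-1. CD40 is the receptor through which helper T cells license macrophages and dendritic cells, ICAM-1 holds the contact through the integrin LFA-1, and CD44 binds hyaluronan. CD83 and CD69 are used as markers of activated cells. LPS activates NF-kB through TLR4, and the glucocorticoid receptor (GR) is known to restrain many of the genes that NF-kB activates.

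RefSeq promoter windows on GRCm38.p6 were held for 5 of the 9 genes (Cd80, Cd274, Icosl, Icam1 and Cd44) and not for Cd83, Cd40, Cd86 and Cd69. Bases upstream of the RefSeq start are shown for 3 genes whose RNA rose under LPS (Cd274, Icosl and Icam1) and for Cd80, whose level moved least among the B7 ligands with an entry. They are printed 5′ to 3′ on the strand of the gene and end at the start or, for Icosl, before the first annotated exon base. Capitals mark matches to the AP-1 motif TGANTCA or to the GR half-site AGAACA on either strand.
Cd274, chr19:29367188-29367437, plus strand: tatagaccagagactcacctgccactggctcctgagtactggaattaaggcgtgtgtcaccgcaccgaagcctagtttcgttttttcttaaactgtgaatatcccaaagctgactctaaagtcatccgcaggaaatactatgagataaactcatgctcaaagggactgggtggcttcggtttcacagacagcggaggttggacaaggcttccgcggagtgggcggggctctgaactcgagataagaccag
Icosl, chr10:78069118-78069301, plus strand: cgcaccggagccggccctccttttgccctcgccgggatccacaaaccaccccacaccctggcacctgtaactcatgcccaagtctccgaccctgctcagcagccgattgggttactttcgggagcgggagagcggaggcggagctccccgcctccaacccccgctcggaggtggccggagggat
Icam1, chr9:21015690-21015939, plus strand: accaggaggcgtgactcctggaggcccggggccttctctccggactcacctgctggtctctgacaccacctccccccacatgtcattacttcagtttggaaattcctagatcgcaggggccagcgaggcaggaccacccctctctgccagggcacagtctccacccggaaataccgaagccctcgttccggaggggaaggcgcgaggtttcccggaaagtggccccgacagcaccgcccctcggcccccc
Cd80, chr16:38458683-38458932, plus strand: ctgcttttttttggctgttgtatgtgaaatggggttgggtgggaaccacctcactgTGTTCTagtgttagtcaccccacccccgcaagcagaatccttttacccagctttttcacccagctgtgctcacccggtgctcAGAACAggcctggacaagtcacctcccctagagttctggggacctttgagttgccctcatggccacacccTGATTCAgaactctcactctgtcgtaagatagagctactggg
In the 250 bases upstream of the start, the window of Cd80 held 1 match to the AP-1 motif and 2 to the GR half-site, which do not overlap each other. This RefSeq window lies inside the Cd80 gene as GENCODE places it (chr16:38455561-38496335), downstream of the first base of the gene. The windows of Cd274, Icosl, Icam1 and Cd44 held no match to either motif. No window of the 5 genes held a full match to the consensus NF-kB motif GGGRNWYYCC (10 bases). In it, R is A or G, W is A or T, Y is C or T and N is any base. Near matches were not counted, such as tggaaattcc in the Icam1 stretch, which differs from the motif at its first base only. Of all 32841 windows of that length, 6.75% held the AP-1 motif, 16.09% the GR half-site and 3.9% the NF-kB consensus. Over the 9473 windows of genes in the table, these shares were 4.42%, 10.33% and 4.63%. No match says only that these letters are not in this stretch.

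Libraries held 25030999 to 49730049 reads on the 9614 genes, recovered from the deposited values. The deleted gene, Nelfb, was at 5.59 to 6.21 log2 CPM in the 8 WT libraries and at 3.27 to 4.38 in the 8 KO libraries. Every KO library thus lay below every WT library. Among KO mice, Nelfb was at 4.21 to 4.38 in the libraries of mouse B, above the 3.27 to 3.53 of mice A and C. Of 10 macrophage markers, 9 were in the table and none was at 0 reads (Adgre1 was not among them, and Lyz2 was lowest at 19.7 to 80.3 CPM). The untreated library of WT mouse A stood apart, with r across genes of 0.83 to 0.909 with the other 15 libraries. In bulk RNA, fewer cells that express a gene and less RNA per cell cannot be told apart.

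Levels of different genes were compared as log2 CPM per kilobase of exon, counting each base that lies in any annotated exon. This length was 6509 bases for Cd69, whose gene lies at chr6:129267325-129275436. Where the main transcripts of a gene are shorter than this length, its value per kilobase is too low. The order of the genes therefore depends on the length used. In untreated WT cells Cd44 was highest (mean 5.44 log2 CPM per kb), followed by Cd274 (4.65), Cd83 (4.46), Icam1 (4.45), Cd86 (2.51), Cd40 (1.57), Icosl (0.88), Cd80 (0.47) and Cd69 (-0.22). Across the libraries Cd274 overlapped Cd83 and Cd83 overlapped Icam1, and the other neighbours did not overlap. Under LPS the order in WT cells was Cd83 (6.96), Icam1 (6.51), Cd274 (6.36), Cd44 (6.02), Cd69 (3.41), Icosl (3.17), Cd40 (3.14), Cd86 (2.50) and Cd80 (0.80). Here Cd44 stood clear of Cd69, and Cd86 of Cd80, while all other neighbours overlapped. Under LPS + Dex in the WT, Icam1 was highest (6.37). Cd83 (5.76) was lower than under LPS alone, and it overlapped its neighbours Cd274 (6.13) and Cd44 (5.72). By mean level over this length, then, Cd69 was last in untreated cells and above Icosl, Cd40 and Cd86 with LPS. Cd80 was last in both treated groups. Both held in KO cells as in WT cells, although Cd69 overlapped Icosl in the WT under LPS and Cd80 in untreated KO cells.

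**Figure D1:**
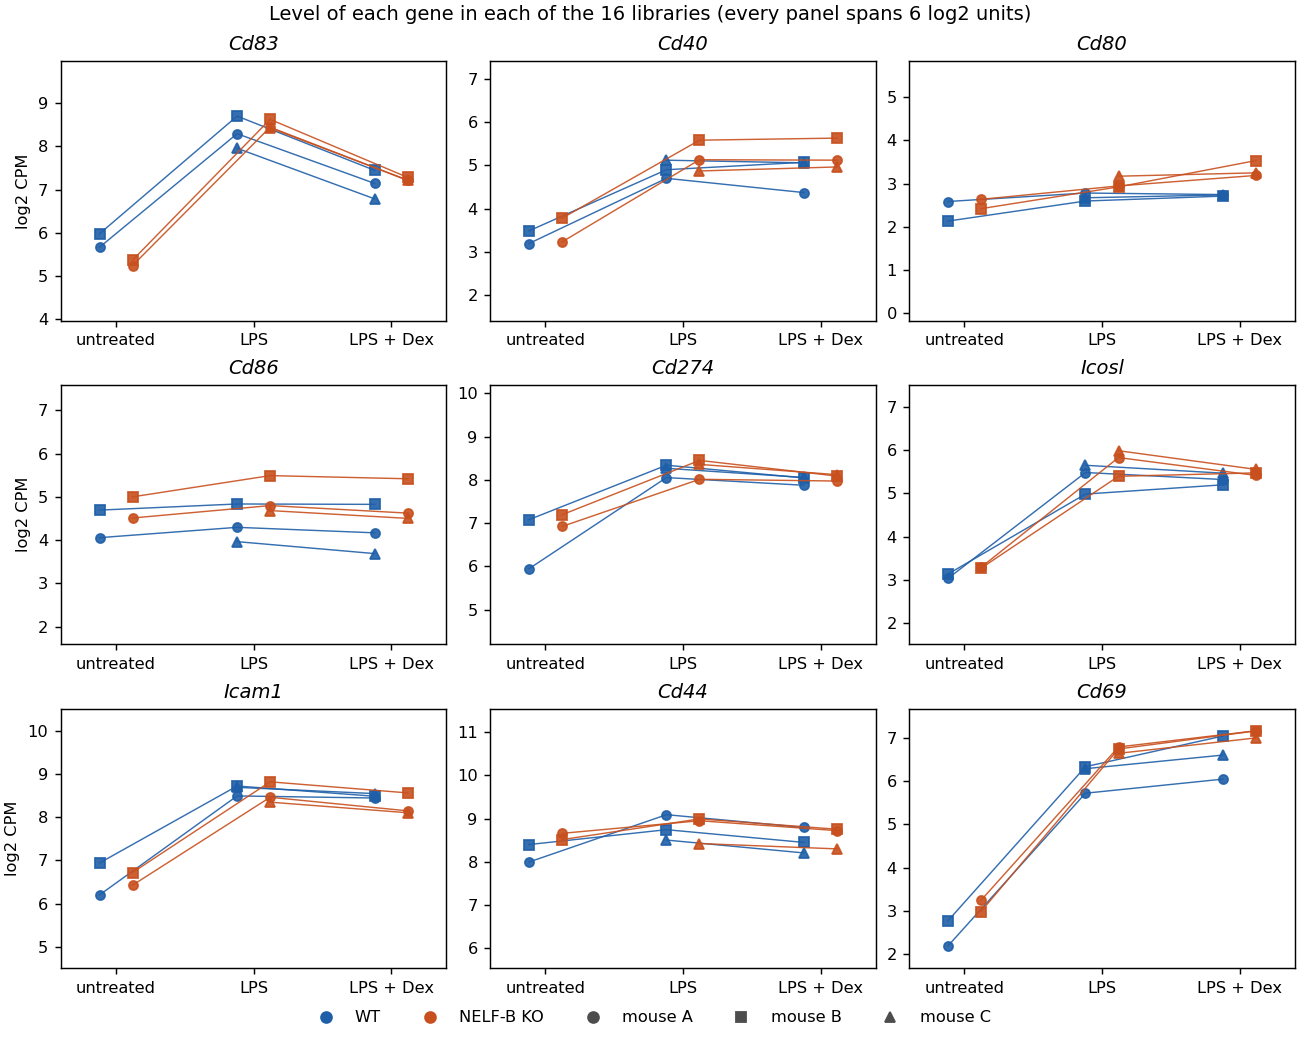
Log2 CPM of each gene in each of the 16 libraries by treatment, with WT in blue, NELF-B KO in orange, a symbol per mouse and lines joining libraries of the same mouse. Cd83 rises with LPS in the 4 mice with an untreated library and falls with Dex in all 6 mice, Cd69 rises again with Dex, and Cd86 keeps the order of the mice at each treatment.

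To ask which of these genes respond to acute LPS, LPS-treated cells were compared with untreated cells of the same genotype. Differences were tested with limma on the log2 CPM of all 9614 genes, and a gene was called at a Benjamini-Hochberg adjusted p under 0.05. Cd69, Cd83, Icosl, Icam1, Cd274 and Cd40 rose in both genotypes, 6 of 9 members in each, and no member fell. The background of this call was 4.63% of all genes higher and 2.28% lower in the WT, and 2.92% higher and 1.09% lower in the KO. The median LPS change of the 9 members was 1.71 on the log2 scale in the WT and 1.69 in the KO, against 0.02 and -0.005 over all genes. With each library centred on its median gene, the same number of members was called, while the WT calls over all genes split into 389 higher and 375 lower in place of 445 and 219.

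Among the ligands of T cell receptors, Icosl (gene at chr10:78069302-78083913, plus strand, GRCm38) had the largest change. It was at 3.03 and 3.14 log2 CPM in untreated WT cells of mice A and B and at 5.48, 4.99 and 5.65 under LPS in mice A, B and C. In KO cells it was at 3.29 and 3.27 untreated and at 5.83, 5.40 and 5.99 under LPS. Every LPS library thus lay above every untreated library. The change was 4.89-fold in the WT (log2 2.29 ± 0.19, SE; limma adjusted p = 4.39e-06) and 5.50-fold in the KO (log2 2.46 ± 0.19; adjusted p = 2.01e-06).

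Cd274 (chr19:29367455-29388095, plus strand), which encodes PD-L1, was at 5.94 and 7.08 log2 CPM in the untreated WT libraries and at 8.05, 8.34 and 8.26 under LPS. The KO values were 6.92 and 7.19 untreated and 8.01, 8.45 and 8.36 under LPS. No group overlapped its untreated group, although the untreated WT libraries lay over 1 log2 unit apart, with the library that stood apart the lower. Cd274 rose 3.27-fold in the WT (log2 1.71 ± 0.25; limma adjusted p = 0.000669) and 2.32-fold in the KO (log2 1.22 ± 0.25; adjusted p = 0.0104). The KO call was lost without the untreated KO library of mouse A (log2 change 1.08), without that of mouse B (1.35), without the KO LPS library of mouse B (1.13) and with mice A and B only (1.17, adjusted p = 0.161).

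Cd80 and Cd86, the ligands of CD28, were not called. Cd80 (chr16:38455561-38496335, plus strand) was at 2.59 and 2.13 log2 CPM in untreated WT cells and at 2.78, 2.60 and 2.67 under LPS, and the KO values were 2.64 and 2.42 untreated and 2.95, 2.93 and 3.17 under LPS. Its changes were 0.32 in the WT (95% interval -0.04 to 0.69; limma adjusted p = 0.222) and 0.49 in the KO (0.12 to 0.85; adjusted p = 0.216). Groups did not overlap, with the highest untreated WT library (2.59) just below the lowest WT library under LPS (2.60). Cd86 (chr16:36603869-36666081, minus strand) was at 4.06 and 4.70 in untreated WT cells and at 4.30, 4.84 and 3.97 under LPS, and at 4.51 and 5.00 untreated and 4.80, 5.49 and 4.68 under LPS in the KO. Untreated and LPS values overlapped in both genotypes, with changes of -0.01 (-0.85 to 0.83) in the WT and 0.24 (-0.61 to 1.08) in the KO. With the mouse as a block, which removes the spread between mice, Cd86 was called in the KO (0.40, adjusted p = 0.0427) and remained uncalled in the WT.

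The spread of Cd86 lay between mice more than between treatments. The letter B stands for a different mouse in each genotype, and labels of both mice print the same string. A difference between mice and any batch that this string marks cannot be told apart. In mouse B it was at 4.70 to 4.84 log2 CPM over the 3 WT libraries and at 5.00 to 5.49 over the 3 KO libraries. In mice A and C it was at 3.69 to 4.30 over the 5 WT libraries and at 4.51 to 4.80 over the 5 KO libraries, so mouse B was higher in each genotype. The 2 of 8 dendritic cell markers in the table, Ccr7 and Clec10a, were taken as a sum, which was also higher in mouse B of each genotype. Their summed level was 13.6 to 14.9 CPM in the WT libraries of mouse B and 13.4 to 18.2 CPM in the KO libraries of mouse B, against 4.22 to 9.62 CPM and 4.57 to 6.56 CPM in the libraries of mice A and C. Both markers were above 0 reads in every library. In mice A and C the sums overlapped between genotypes, while the Cd86 levels did not. The single T cell and B cell markers in the table (of 8 and 6 listed), Cd4 and Cd79b, were also higher in mouse B. Cd4 was at 57.8 to 59.2 CPM in WT and 32.1 to 37.9 CPM in KO libraries of mouse B, against 7.43 to 35.1 CPM and 5.14 to 6.66 CPM in those of mice A and C. Cd79b was at 27.0 to 36.5 CPM and 31.0 to 39.7 CPM in mouse B, against 13.4 to 31.8 CPM and 14.0 to 17.6 CPM in mice A and C, with the untreated library of WT mouse A the highest of the latter libraries in the WT. S100a8 was the single neutrophil marker in the table (of 10 listed). In the WT it was at 5.44 to 7.81 CPM in mouse B, against 13.25 to 27.07 CPM in mice A and C. In the KO it overlapped, at 11.7 to 20.6 CPM in mouse B, against 18.3 to 41.5 CPM. The summed endothelial or stromal markers (3 of 8 listed) overlapped between mouse B and mice A and C in both genotypes. The part of any of these markers in the spread of Cd86 was not tested.

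**Figure D2:**
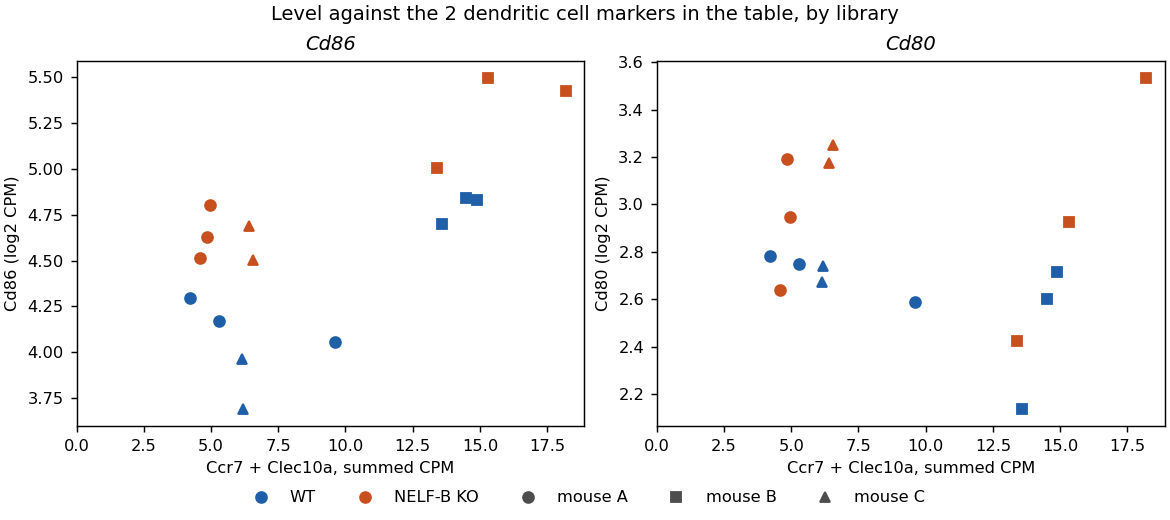
Log2 CPM of Cd86 (left) and Cd80 (right) in each of the 16 libraries against the summed CPM of Ccr7 and Clec10a, with a color per genotype and a symbol per mouse. Libraries of mouse B (squares) have marker sums of at least 13.4 CPM and the highest Cd86 levels of their genotype, while Cd80 shows no such separation.

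Cd40 (chr2:165055627-165072948, plus strand), the receptor of the TNF receptor family that T cells engage, was at 3.19 and 3.48 log2 CPM in untreated WT cells and at 4.70, 4.90 and 5.12 under LPS. In KO cells it was at 3.23 and 3.78 untreated and at 5.13, 5.58 and 4.87 under LPS. All LPS libraries lay above all untreated libraries. The rise was 2.96-fold in the WT (log2 1.57 ± 0.28; limma adjusted p = 0.00323) and 3.23-fold in the KO (log2 1.69 ± 0.28; adjusted p = 0.00199). The KO call was lost without the untreated KO library of mouse A (log2 1.42, adjusted p = 0.0571).

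The activation markers moved most. Cd69 (chr6:129267325-129275436, minus strand), a C-type lectin that is known to hold the receptor S1PR1 inside the cell, was at 2.19 and 2.77 log2 CPM in untreated WT cells and at 5.72, 6.34 and 6.29 under LPS. The KO libraries were at 3.24 and 2.99 untreated and at 6.79, 6.75 and 6.64 under LPS. Cd69 rose 12.4-fold in the WT (log2 3.64 ± 0.26; limma adjusted p = 9.19e-07) and 12.2-fold in the KO (log2 3.61 ± 0.26; adjusted p = 9e-07), the 51st and the 52nd highest changes among the 9614 genes. Cd83 (chr13:43784775-43803132, plus strand), known to oppose the removal of MHC class II and CD86 from the surface, was at 5.67 and 5.98 untreated and at 8.30, 8.70 and 7.96 under LPS in the WT. In the KO it was at 5.25 and 5.37 untreated and at 8.45, 8.63 and 8.43 under LPS. The rise was 5.63-fold in the WT (log2 2.49 ± 0.21; adjusted p = 4.2e-06) and 9.13-fold in the KO (log2 3.19 ± 0.21; adjusted p = 2.97e-07).

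Of the adhesion molecules, Icam1 (chr9:21015985-21028817, plus strand) was at 6.20 and 6.94 log2 CPM in untreated WT cells and at 8.49, 8.72 and 8.69 under LPS. In KO cells it was at 6.43 and 6.72 untreated and at 8.46, 8.82 and 8.35 under LPS. The groups were far apart in both genotypes. Icam1 rose 4.18-fold in the WT (log2 2.06 ± 0.21; limma adjusted p = 2.87e-05) and 3.91-fold in the KO (log2 1.97 ± 0.21; adjusted p = 4.79e-05). Cd44 (chr2:102811141-102901665, minus strand), already abundant in untreated cells, was at 7.99 and 8.40 untreated and 9.09, 8.74 and 8.50 under LPS in the WT, and at 8.66 and 8.51 untreated and 8.95, 8.99 and 8.42 under LPS in the KO. KO groups overlapped and WT groups did not. The change was 0.58 in the WT (0.07 to 1.10; adjusted p = 0.145) and 0.20 in the KO (-0.31 to 0.72; adjusted p = 1.0), neither called. With the mouse as a block, Cd44 was called in the WT (0.72, adjusted p = 0.0213). It was also called there without the untreated WT library of mouse B (0.79, adjusted p = 0.0364), which leaves the library that stood apart as the sole untreated WT library.

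Cells treated with LPS + Dex were also compared with untreated cells, to ask which levels stayed up in the presence of Dex. These comparisons share their untreated libraries with those of LPS. The same 6 genes were called higher in the WT, and 7 members were called higher in the KO, the 6 and Cd80. The background was 4.55% of genes higher and 1.84% lower in the WT, and 3.29% higher and 1.08% lower in the KO. Cd69 was 17-fold above untreated in the WT (log2 4.09 ± 0.26; limma adjusted p = 3.37e-07) and 15.9-fold above it in the KO (log2 3.995 ± 0.262; adjusted p = 3.69e-07). Cd83 remained 2.46-fold above untreated in the WT (log2 1.301 ± 0.209; adjusted p = 0.00151) and 3.81-fold above it in the KO (log2 1.93 ± 0.21; adjusted p = 4.85e-05). With each genotype fitted alone, the Cd83 call was lost in the WT (adjusted p = 0.0555).

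Icosl, Icam1, Cd40 and Cd274 were 2.25, 1.92, 1.495 and 1.48 log2 units above untreated in the WT and 2.20, 1.70, 1.74 and 1.00 above it in the KO under LPS + Dex. The Cd274 call in the KO (adjusted p = 0.0361 in limma) was lost in 10 of the 16 fits that left out a library, with mice A and B only (adjusted p = 0.306) and with each library centred on its median gene (adjusted p = 0.0502). In the WT the Cd274 call was lost with that genotype fitted alone (adjusted p = 0.0509) and with mice A and B only, and the Cd40 call without the untreated library of mouse A (adjusted p = 0.062) and with mice A and B only. Cd80 was at 3.19, 3.54 and 3.25 log2 CPM in the KO libraries with LPS + Dex, above both untreated ones, a change of 0.80 ± 0.17 (adjusted p = 0.0134). This call was lost without either untreated KO library, without the KO LPS + Dex library of mouse B and with mice A and B only, at changes of 0.69 to 0.90. In the WT the Cd80 change was 0.37 (0.01 to 0.74; adjusted p = 0.182). Cd86 and Cd44 were not called in either genotype, at -0.15 and 0.29 in the WT and 0.09 and 0.01 in the KO.

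**Figure D3:**
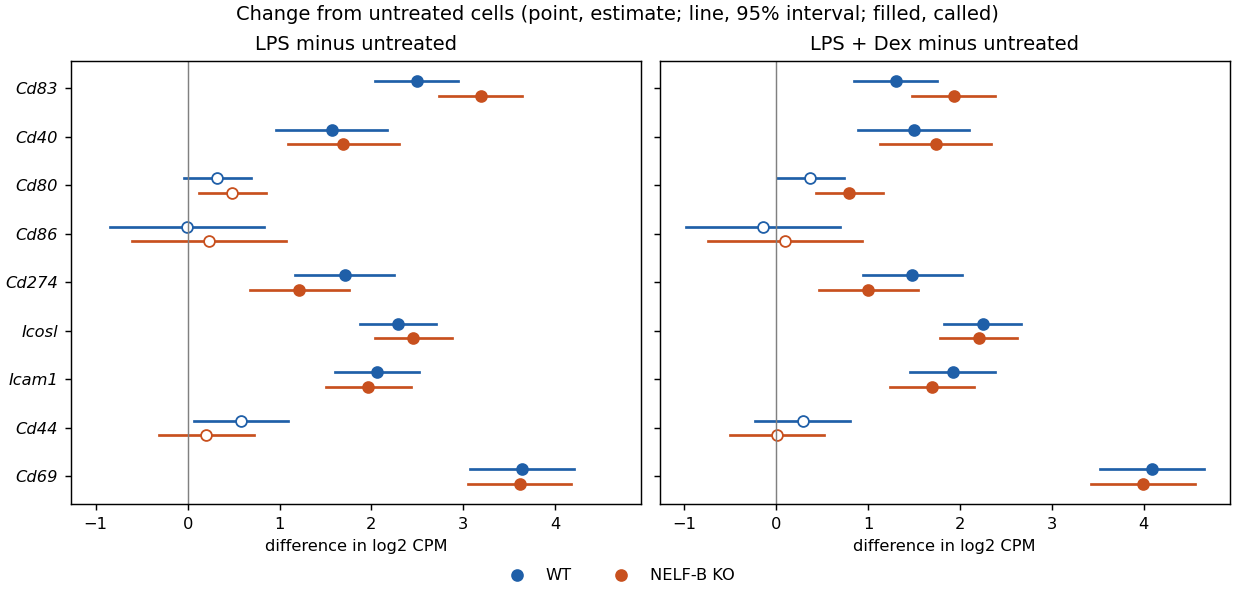
Difference in log2 CPM from untreated cells under LPS (left) and under LPS + Dex (right) for each gene, WT in blue and NELF-B KO in orange, with 95% intervals and filled points where limma's adjusted p was under 0.05. Cd69 lies farthest right in both panels, Cd83 moves left from the first panel to the second, and Cd80, Cd86 and Cd44 lie closest to 0.

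To ask how Dex changed the LPS-treated level, LPS + Dex cells were compared with LPS cells of the same mouse, with the mouse as a block in limma. In each genotype 4 members fell (Cd83, Cd44, Cd274 and Icam1) and 1 member rose (Cd69). Background calls were 5.65% of genes lower and 4.77% higher in the WT, and 6.99% lower and 7.1% higher in the KO. Over the members the median Dex change came to -0.14 in WT and -0.20 in KO cells, against -0.01 and -0.002 over all genes. Without the block, Cd83 alone was called in each genotype, and no member was called higher.

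Cd83 fell by far the most. It was at 7.15, 7.45 and 6.79 log2 CPM in the WT and at 7.21, 7.28 and 7.22 in the KO under LPS + Dex, below all LPS libraries of its genotype. Within mice A, B and C the change was -1.15, -1.25 and -1.17 in the WT and -1.23, -1.34 and -1.21 in the KO. Dex thus left 43.8% of the LPS level in the WT (log2 change -1.19 ± 0.04; limma adjusted p = 4.85e-10) and 41.8% in the KO (-1.26 ± 0.04; adjusted p = 2.47e-10). These were the 16th and the 15th lowest Dex changes of the 9614 genes.

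Falls of Cd44, Cd274 and Icam1 were smaller and were seen in 3 of 3 mice of each genotype. Cd44 changed by -0.30 in each WT mouse and by -0.23, -0.24 and -0.12 in KO mice A, B and C. Its LPS + Dex level was 81.4% of the LPS level in the WT (log2 -0.30 ± 0.03; limma adjusted p = 4.05e-05) and 87.2% in the KO (-0.20 ± 0.03; adjusted p = 0.0011). Cd274 changed by -0.18, -0.30 and -0.21 in the WT mice and by -0.04, -0.36 and -0.24 in the KO mice, to 85.4% and 86.3% of the LPS level (adjusted p = 0.00892 and 0.0117). Icam1 changed by -0.05, -0.24 and -0.15 in the WT mice and by -0.31, -0.26 and -0.25 in the KO mice, to 90.6% and 82.8% (adjusted p = 0.0284 and 0.00024). Pooled over mice, the LPS and LPS + Dex libraries of these 3 genes overlapped in both genotypes. The calls of Cd274 in both genotypes and of Icam1 in the WT were lost without either library of mouse B or of mouse C of that genotype, at changes as small as -0.20 (WT) and -0.14 (KO) for Cd274 and -0.10 for Icam1.

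Cd69 moved the other way. It was at 6.05, 7.05 and 6.60 log2 CPM under LPS + Dex in the WT and at 7.17, 7.16 and 7.002 in the KO. Within mice A, B and C the change from LPS was 0.33, 0.71 and 0.32 in the WT and 0.38, 0.42 and 0.36 in the KO, higher in 6 of 6 mice. The rise came to 1.37-fold in the WT (log2 0.45 ± 0.06; limma adjusted p = 0.000242) and 1.3-fold in the KO (0.38 ± 0.06; adjusted p = 0.000813). It kept its call in each fit that left out a library.

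Cd40, Cd80, Cd86 and Icosl were not called. Dex changed Cd40 by -0.07 (95% interval -0.23 to 0.09) in WT cells and by 0.04 (-0.12 to 0.20) in the KO. Cd86 changed by -0.14 (-0.26 to -0.01) and -0.14 (-0.27 to -0.02), lower in 6 of 6 mice, with limma adjusted p of 0.2 and 0.136. Icosl changed by -0.04 (-0.25 to 0.16) in the WT and -0.26 (-0.46 to -0.05; adjusted p = 0.102) in the KO, and in each genotype it was lower in mice A and C and higher in mouse B. Without either KO library of mouse B, the KO change of Icosl was -0.42 and called. Cd80 changed by 0.05 (-0.17 to 0.26) in the WT and by 0.31 (0.10 to 0.52; adjusted p = 0.0556) in the KO, where the mice gave 0.24, 0.61 and 0.08, and it was called at 0.43 without either KO library of mouse C.

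**Figure D4:**
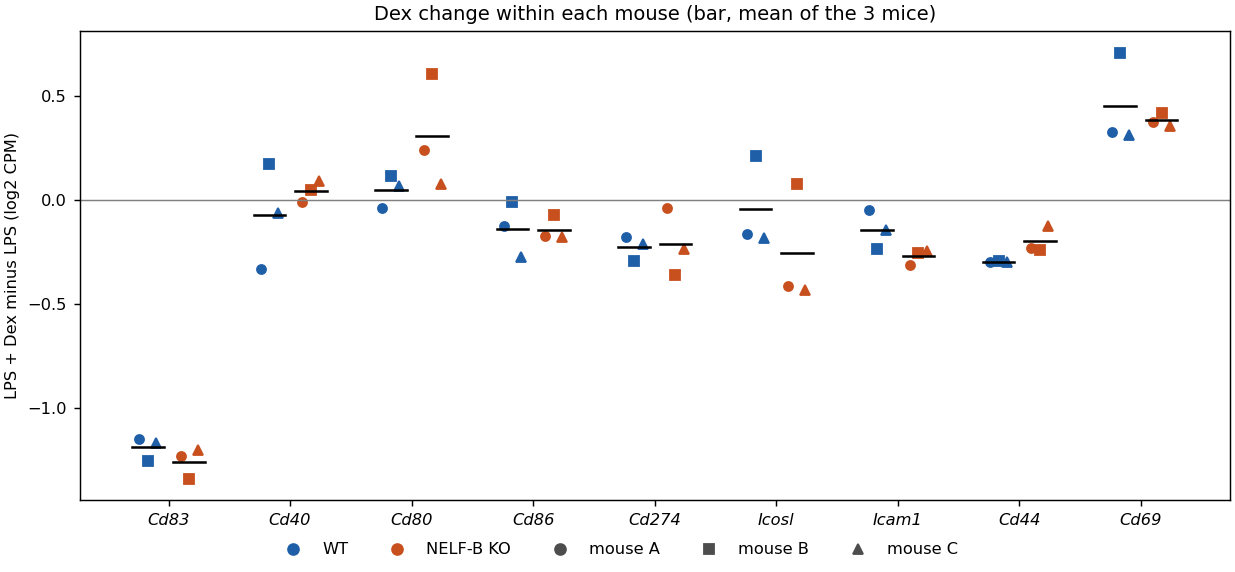
Difference in log2 CPM between LPS + Dex and LPS within each mouse, WT in blue and NELF-B KO in orange, with a symbol per mouse and a black bar at the mean of the 3 mice. Cd83 lies between -1.34 and -1.15 in all 6 mice, Cd69 between 0.32 and 0.71, and the other genes between -0.43 and 0.61.

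To ask whether deletion of NELF-B changed these genes, KO and WT libraries of the same treatment were compared. No member and no gene of the table was called in untreated cells (0.0% of 9614 genes), under LPS (0.0%) or under LPS + Dex (0.0%). At an unadjusted p under 0.05, 37, 811 and 1090 genes passed in limma, and 0, 1 and 1 members, and voom in limma on the recovered reads called 0, 3 and 3 genes. Nelfb itself was not called either, at -2.11 in untreated cells, -2.02 under LPS and -2.003 under LPS + Dex (adjusted p = 0.889, 0.105 and 0.0889). It was called in all 3 treatments with mice of the same letter as a block, although the labels tie the genotypes for letter B alone (adjusted p = 0.00322, 0.043 and 0.0328), a fit that called 3, 12 and 59 genes. No member was called with the block or by voom. Member differences were mostly above 0, with 8 of 9 members higher in the KO in each treatment and medians of 0.20, 0.29 and 0.15 against 0.02, 0.001 and 0.01 over all genes. Icam1 counts among the 8 in untreated cells at 0.002, and was at -0.002 with median centring. Without the untreated WT library of mouse A, Icam1 was at -0.37 and Cd274 at -0.022 in untreated cells. Under LPS, Cd44 (0.01) and Cd274 (0.05) changed sign in fits that left out 1 library, as did Cd83 and Cd44 under LPS + Dex. The members were read in the same mice, and the share of all genes higher in the KO was not counted.

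Under LPS, Cd69 had the lowest p, with each KO library (6.64 to 6.79 log2 CPM) above each WT library (5.72 to 6.34) and a difference of 0.61 (95% interval 0.21 to 1.01; unadjusted p = 0.00824 and adjusted p = 0.311 in limma). Between mice of the same letter, the Cd69 difference was 1.07, 0.41 and 0.36 for A, B and C. Labels of mouse B alone share a printed string between genotypes, in the WT on the untreated library only. Under LPS + Dex, Cd80 had the lowest p, with KO libraries at 3.19 to 3.54 and WT libraries at 2.71 to 2.75, a difference of 0.59 (0.27 to 0.91; unadjusted p = 0.00321 and adjusted p = 0.198). By letter, Cd80 differed by 0.44, 0.82 and 0.51. Cd86 was higher in the KO at each letter and treatment, by 0.31 to 0.81, but the groups overlapped throughout, and its difference under LPS was 0.63 (-0.03 to 1.28). Cd274 and Cd44 differed little under LPS, by 0.05 (-0.28 to 0.39) and 0.01 (-0.47 to 0.49), and Cd83 by 0.18 (-0.26 to 0.62).

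In untreated cells, Cd83 was at 5.25 and 5.37 in the KO and 5.67 and 5.98 in the WT, a difference of -0.52 (-1.21 to 0.17; limma adjusted p = 0.889). Cd274, Cd44 and Cd69 were each lowest in the untreated WT library of mouse A. Left as the sole untreated WT library, it gave differences of 1.11, 0.59 and 0.93 that were called (3 members). With mouse B as the sole untreated WT library, those differences were not called, at -0.02 for Cd274, 0.19 for Cd44 and 0.34 for Cd69.

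**Figure D5:**
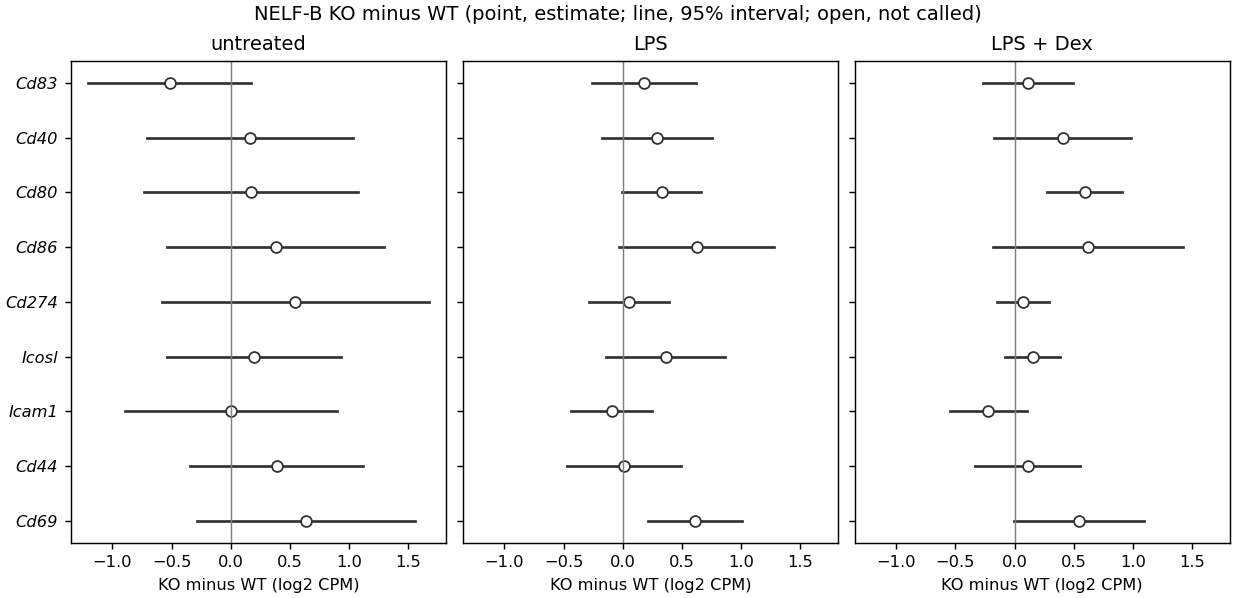
NELF-B KO minus WT in log2 CPM for each gene in untreated, LPS and LPS + Dex cells, with 95% intervals from limma and open points where not called. Each interval except those of Cd69 under LPS and Cd80 under LPS + Dex includes 0, and intervals are widest in untreated cells.

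The change of LPS response between genotypes was not called for any member (0.0% of all genes called). It was largest for Cd83, which rose 0.70 log2 units more in the KO (95% interval 0.06 to 1.34; unadjusted p = 0.0345, adjusted p = 0.69 in limma), and for Cd274, which rose 0.49 less (-1.25 to 0.27 for KO minus WT). The Cd274 difference rests on which untreated WT library is used, at 0.076 (adjusted p = 1.0) without that of mouse A, which stood apart, and at -1.06 (adjusted p = 0.00311) without that of mouse B. The change of Dex response was not called for any member either (0.0104% of all genes called, 1 gene). KO minus WT Dex changes were -0.07 (-0.18 to 0.04) for Cd83, -0.07 (-0.26 to 0.12) for Cd69, -0.13 (-0.25 to -0.01) for Icam1 and 0.26 (-0.04 to 0.56) for Cd80.

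The other costimulatory and coinhibitory molecules were mostly flat under LPS. Of 38 symbols listed, among them Tnfrsf5, another name of Cd40, 23 were in the table. With LPS, 4 rose in the WT and 3 in the KO, none fell, and the median change was 0.14 and 0.05. Tnfsf9, the ligand of the receptor 4-1BB, went from 1.12 ± 0.41 log2 CPM (SD, n = 2) in untreated WT cells to 8.05 ± 0.29 (n = 3), a change of 6.92 (limma adjusted p = 2.95e-10), and by 7.06 in the KO. Tnfsf15 rose by 3.40 and 2.90 and Pvr, a ligand of DNAM-1 and TIGIT, by 1.77 and 1.47. Slamf7 rose by 0.97 in the WT (adjusted p = 0.0294), and is named after its value was seen. With LPS + Dex against untreated, the calls were Tnfsf9, Tnfsf15 and Pvr in both genotypes.

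Dex calls in that list are named after their values were seen. They were 2 higher and 3 lower of 23 in the WT, and 2 higher and 5 lower in the KO. Over all genes the shares were 4.77% higher and 5.65% lower in the WT, and 7.1% and 6.99% in the KO. Higher were Havcr2, which encodes the inhibitory receptor TIM-3, by 0.61 in the WT (limma adjusted p = 6.42e-05) and 0.72 in the KO (adjusted p = 1.28e-05), and Cd47, the signal that restrains phagocytosis, by 0.17 and 0.19. Lower in both genotypes were Slamf8 (-0.38 and -0.33), Clec2i (-0.38 and -0.31) and Clec2d (-0.30 and -0.37), and lower in the KO were Slamf7 (-0.21) and Sirpa (-0.15).

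Of 44 other adhesion molecules, 35 were in the table, and they had a median LPS change of 0.07 in WT and 0.04 in KO cells. Itga5, the alpha chain of a fibronectin receptor, rose by 1.46 in the WT (limma adjusted p = 0.000428) and 1.65 in the KO (adjusted p = 0.000146), and Sema4d, a semaphorin, by 0.97 in the WT. With Dex both were lower, with changes of -0.30 and -0.29 for Itga5 and of -0.16 and -0.16 for Sema4d. Further Dex calls, named after their values were seen, were Itgav (-0.29), Vcam1 (0.18) and Itga6 (0.13) in the WT and Emb (0.24), Itga4 (0.22), Cd93 (0.21) and Itga6 (0.16) in the KO. Of 35 genes, Dex calls were 2 higher and 3 lower in the WT, and 4 higher and 2 lower in the KO. The shares over all genes were 4.77% higher and 5.65% lower in the WT, and 7.1% and 6.99% in the KO. Against untreated cells, LPS + Dex gave calls for Itga5 in both genotypes and Sema4d in the WT.

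Of 11 genes of MHC class II presentation, 7 were in the table. None was called with LPS, with a median change of -0.95 in the WT and -0.05 in the KO, and none with LPS + Dex against untreated. The WT change is set against untreated libraries of which that of mouse A stood apart. The median of KO minus WT was -0.35 in untreated cells and 0.55 under LPS. Under Dex Cd74, the invariant chain, was lower in the WT (-0.36, limma adjusted p = 0.0305) and KO (-0.38, adjusted p = 0.0184), and H2-Aa was lower in the KO (-0.29). A further list held 18 symbols of genes related to the surface turnover of the members or to their ligands, with old and new symbols of March1 and March8. Of these, 13 were in the table and none was called with LPS or with LPS + Dex against untreated. With Dex, March1, the ubiquitin ligase known to remove MHC class II and CD86 from the surface, was higher by 0.52 in the WT (adjusted p = 2.63e-06) and 0.64 in the KO (adjusted p = 3.97e-07). S1pr1, the receptor that CD69 binds, was lower (-0.57 in the WT and -0.46 in the KO), as was Mmp14, a membrane protease that can cleave CD44 (-0.17 and -0.24), while Ezr was higher by 0.17 in the KO. These genes are named after their Dex values were seen. Of the 7 MHC class II genes, 1 was lower with Dex in the WT and 2 in the KO. Of the 13 turnover genes, 1 was higher and 2 lower in the WT, and 2 higher and 2 lower in the KO. The shares over all genes are those given for the other lists. In all 4 lists no gene was called for KO against WT or for a difference in LPS or Dex change.

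Across the 16 libraries, which share treatments, the members were ordered by likeness of pattern (Pearson r of log2 CPM, given as a description). Icosl and Cd69 were most alike (r = 0.954), followed by Cd40 and Cd69 (0.947) and Cd274 and Icam1 (0.942), and Cd86 and Icosl were least alike (0.027). Over 9591 genes with a mean log2 CPM above 1, the genes most like Cd83 were Ier3 (0.977), Osm (0.97) and Egr2 (0.967), and those most like Cd69 were Dusp2 (0.988), Dusp1 (0.985) and Rnd3 (0.982). Icosl was closest to Nfkbia (0.986), Marcksl1 and Socs3 (0.985 each), Icam1 to Ccl4 (0.988), Ifnb1 (0.987) and Ccl3 (0.986), Cd274 to C5ar1 (0.978), Rel and Csrnp1 (0.972 each), and Cd40 to Csf3 (0.974), Zfand5 (0.971) and Cdkn1a (0.963). The genes that LPS moved little had weaker matches, with Map4k4 (0.937), Eif4g3 (0.93) and Dcn (0.924) for Cd86, March7 (0.912), Itgav (0.91) and Fbxo30 (0.905) for Cd44, and D16Ertd472e (0.91), Gm15832 (0.893) and Agtrap (0.883) for Cd80.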

How the data were processed

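Per the labels and the study's methods, the authors sequenced polyA RNA in paired reads, demultiplexed it with CASAVA 1.8, mapped it to mm10, assigned uniquely mapped exon reads to genes and normalized the libraries with edgeR's trimmed mean of M-values. Their table was deposited as log2 CPM per library for 9614 genes. Its 18 columns of the authors' own p-values and FDR were not used. Low values stepped by whole reads (100.0% within 0.2 of a whole number under 3 CPM), from which reads were recovered. Such depths give counting error only.

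All comparisons were fitted here to the deposited log2 values of all genes with lmFit and eBayes (with a variance trend) in limma 3.58.1 under R 4.3.3, two-sided, with Benjamini-Hochberg adjustment. LPS and LPS + Dex were set against untreated in a single fit of all 16 libraries. Dex changes came from the 12 LPS and LPS + Dex libraries with the mouse as a block. Genotypes were compared within a treatment. No pseudocount or filter was added. The pairing comes from the mouse numbers that the labels print. Deviations from the group means were correlated between libraries of a mouse (r of 0.781 to 0.939 for LPS with LPS + Dex, 0.448 in the WT and 0.865 in the KO for untreated with LPS). The scripts were tested on simulated data.

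The members and the other gene lists were chosen with earlier results of these data known. Members are all named. Other genes named are the called ones with the largest LPS change in the WT (up to 3 that rose and 2 that fell per list), the 3 genes most like each member, Nelfb, and those said to be named after their values were seen. Promoter windows are from RefSeq and gene positions from GENCODE on GRCm38, the assembly that mm10 also names.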

Additional observations from a re-analysis of the deposited data

How the results depend on the processing

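Of 1836 values of single members under the alternatives, 1698 kept direction and side of the threshold, 49 lost a call, 11 gained a call and 78 changed sign. The Dex calls depend most on the mouse as a block. Without the replicate block, 0 members were called higher and 1 lower (Cd83) in each genotype, in place of 1 and 4, and calls over all genes went from 1002 to 110 in the WT and from 1355 to 140 in the KO. With mice A and B only, 2 members were lower with Dex in the WT, and at the study's thresholds, which add a 1.3-fold minimum, 1 was lower in each genotype. Over the fits that leave out 1 library each, 2 to 4 members were lower with Dex in the WT, 1 to 2 were higher with Dex in the KO, 0 to 3 differed between genotypes in untreated cells and 0 to 1 differed in LPS change. The last 2 ranges rest on the fit without the untreated WT library of mouse B, where a lone library is assumed to vary like the other groups. With the replicate block, the paired fit called 7 members higher with LPS in each genotype in place of 6, and it changed no call other than Cd44 in the WT and Cd86 in the KO. Over all genes, LPS calls in the WT went from 664 to 1326 with the block, to 253 with each genotype fitted alone and to 282 with mice A and B only. In the KO they went from 386 to 704 with the block and to 256 with mice A and B only. With LPS + Dex against untreated they went from 614 to 1241 (WT) and from 420 to 750 (KO) with the block, to 268 and 271 with mice A and B only and to 248 in the WT fitted alone. Dex calls with mice A and B only were 612 (WT) and 720 (KO). Between genotypes, 0 genes in each treatment became 3 (untreated), 12 (LPS) and 59 (LPS + Dex) with letters as a block. A printed string ties the genotypes for letter B alone. In a single fit of all 16 libraries, they became 1, 14 and 11. The cause of these changes was not tested. With 2 untreated libraries per genotype, differences in untreated cells are the least precise.

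The 78 changes of sign fell on 27 values, and no such value was called in the reported fit or in the fit that turned it (0 of 78). With the replicate block, Cd86 was at 0.23 for LPS and 0.088 for LPS + Dex against untreated in the WT, and the difference in LPS change was 0.024 for Icam1 and 0.077 for Cd69. With mice A and B only, those were 0.19, 0.12, 0.031 and 0.10, and the Dex change of Icosl in the WT was 0.026. With median centring, Cd44 was at -0.054 for LPS + Dex against untreated in the KO, and Icam1 at -0.002 for KO minus WT in untreated cells. With voom the latter was -0.003 and the difference in LPS change of Cd69 was 0.004, which was 0.050 on log2(CPM + 1). The other 64 came from leaving out 1 library. For LPS against untreated in the WT, Cd86 ran from -0.33 to 0.31. For the same in the KO, Cd86 ran from -0.016 to 0.48. For LPS + Dex against untreated in the WT, Cd86 ran from -0.47 to 0.17. For LPS + Dex in the KO, Cd86 ran from -0.19 to 0.34 and Cd44 from -0.075 to 0.15. For the Dex change in the WT, Cd40 ran from -0.20 to 0.056 and Icosl from -0.17 to 0.026. For KO minus WT in untreated cells, Cd40 ran from -0.11 to 0.44, Cd80 from -0.058 to 0.40, Cd274 from -0.022 to 1.11 and Icam1 from -0.37 to 0.37. For KO minus WT under LPS, Cd274 ran from -0.034 to 0.18, Icam1 from -0.23 to 0.005 and Cd44 from -0.13 to 0.19. For KO minus WT under LPS + Dex, Cd83 ran from -0.056 to 0.27 and Cd44 from -0.030 to 0.26. For the difference in LPS change, Cd40 ran from -0.15 to 0.40, Cd80 from -0.065 to 0.39, Cd86 from -0.074 to 0.56, Cd274 from -1.06 to 0.076, Icosl from -0.025 to 0.34, Icam1 from -0.46 to 0.28 and Cd69 from -0.32 to 0.27. For the difference in Dex change, Cd40 ran from -0.012 to 0.24, Cd86 from -0.074 to 0.059, Cd274 from -0.072 to 0.089 and Cd69 from -0.14 to 0.063.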
